A study of Homo sapiens with 2 samples.

Results

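The p53 target genes considered here are 34 genes that are known to be induced by the transcription factor p53 and that were chosen by name. A gene was followed through the probe sets that name it alone on the array. Of the 34 genes, 31 had such a probe set, out of 19775 genes on the array, and 28 of them had a signal above 50 in at least 1 array, out of 8917 genes. HT-29 is a human colorectal adenocarcinoma line whose p53 is mutant, and the effect of the mutation on these genes was not tested. The arrays measure RNA, and the activity of p53 was not measured.

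p53 is stabilised when DNA is damaged or when ribosome assembly is disturbed, and it then binds DNA as a tetramer and induces genes that stop the cell cycle, repair DNA or kill the cell. It also induces MDM2, the ubiquitin ligase that degrades it, which closes a feedback loop. Many of the target genes have other activators too, among them FOXO factors, the stress factor ATF4 and p63. MYC, a driver of growth, is known to repress some of them, of which CDKN1A and the GADD45 genes are the usual examples.

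Total RNA of 2 cultures was hybridised to 1 array each. HT-29 cells of the MYC siRNA array received 20 nM of a pool of siRNAs against MYC, and those of the control siRNA array 20 nM of a pool with no target, for 24 h by lipid-based reverse transfection, and they were used after 48 h. The treatment label of the control sample reads None, whereas the transfection protocol names the pool with no target as the control, which is followed here. Since each condition has 1 array, no difference could be set against replicates and no p-value is given. As a measure of spread within the arrays, log2 ratios of different probe sets that name one gene had an SD of 0.29, 0.23 and 0.20 among dim, middle and bright genes (855, 1496 and 1689 genes). These are 3 equal groups by mean signal, and the SD leaves out the variation between cultures. MYC had a signal of 1640 with MYC siRNA and 1963 with control siRNA, 1.20-fold lower, and rests on 1 probe set. This is a log2 ratio of -0.26, beside the SD of 0.20 of bright genes. For the knockdown the paper also gives immunoblots of MYC protein, and it reports decreased growth. It also reports lower expression of MYC target signatures, from its MYC siRNA microarrays. Those are the data used here, so that result is not separate evidence. Of the colon epithelial markers, 7 of 9 were above 50, with CDX1 and CDX2 under 4 in both arrays, and their summed signal, most of it from keratin genes, was 36572 with MYC siRNA and 32616 with control siRNA. The single markers differed more, with ratios between 0.88 for EPCAM and 1.72 for LGALS4, which had 3056 with MYC siRNA and 1771 with control siRNA. Of 7 markers of immune, endothelial, stromal and liver cells, only COL1A1 was above 50 (78.9 with MYC siRNA and 94.7 with control siRNA), and their summed signal was 127 with MYC siRNA and 159 with control siRNA.

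To show the DNA in front of the members on which the results turn, promoter windows of 300 bases (250 before and 50 after a RefSeq start site, build GRCh38.p14) were searched for the p53 half-site, the sequence of 10 bases of which p53 binds a pair, and for CACGTG, the E-box bound by MYC with MAX. Both motifs are palindromic, so that each search covers both strands, and no match of one overlapped the other. The table held 28 of the 34 members, with 39 windows, since some genes have several starts. Shown are the 250 bases before the start of TP53I3 and CCNG2, the members with the highest ratios of MYC siRNA to control siRNA, of PLK2, the next in that order, of BAX, with the most E-boxes, and of AEN, with a match to both motifs, and for DDB2 30 bases that hold its 2 half-sites. Capitals mark a p53 half-site (PLK2, AEN, DDB2) or an E-box (CCNG2, BAX).
CCNG2 (chr4:77156957-77157206, + strand): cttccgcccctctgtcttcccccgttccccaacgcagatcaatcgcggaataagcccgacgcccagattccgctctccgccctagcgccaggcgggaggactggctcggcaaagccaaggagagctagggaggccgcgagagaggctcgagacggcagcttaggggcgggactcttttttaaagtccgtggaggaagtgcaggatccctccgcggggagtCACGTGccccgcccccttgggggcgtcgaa
TP53I3 (chr2:24084835-24085084, - strand): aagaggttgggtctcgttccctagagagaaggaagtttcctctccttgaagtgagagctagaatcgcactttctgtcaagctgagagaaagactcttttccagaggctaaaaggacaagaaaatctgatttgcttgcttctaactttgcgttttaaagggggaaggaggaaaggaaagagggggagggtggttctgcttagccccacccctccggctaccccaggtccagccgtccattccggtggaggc
PLK2 (chr5:58460087-58460336, - strand): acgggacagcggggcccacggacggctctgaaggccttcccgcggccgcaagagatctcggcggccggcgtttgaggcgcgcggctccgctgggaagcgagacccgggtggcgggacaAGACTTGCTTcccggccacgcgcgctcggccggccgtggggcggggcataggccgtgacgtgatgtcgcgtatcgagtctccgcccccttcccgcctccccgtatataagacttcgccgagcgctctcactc
BAX (chr19:48954625-48954874, + strand): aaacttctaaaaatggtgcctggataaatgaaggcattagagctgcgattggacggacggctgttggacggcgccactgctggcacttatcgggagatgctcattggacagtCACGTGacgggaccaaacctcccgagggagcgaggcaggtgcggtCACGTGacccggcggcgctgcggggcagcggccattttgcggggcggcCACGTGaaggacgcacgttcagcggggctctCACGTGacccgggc
AEN (chr15:88621090-88621339, + strand): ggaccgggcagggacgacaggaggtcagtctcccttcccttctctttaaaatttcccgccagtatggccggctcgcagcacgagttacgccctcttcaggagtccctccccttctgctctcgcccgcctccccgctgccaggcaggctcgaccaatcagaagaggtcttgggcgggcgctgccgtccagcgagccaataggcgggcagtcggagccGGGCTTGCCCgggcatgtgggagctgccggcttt
DDB2 (chr11:47214975-47215004, + strand): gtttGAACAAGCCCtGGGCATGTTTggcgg

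The promoter of CCNG2 held an E-box whose first base lay 30 bases before the start, and the promoter of TP53I3 held neither motif. BAX held 4 E-boxes, 138, 93, 45 and 14 bases before its start. PLK2 held a half-site 132 bases and AEN a half-site 34 bases before the start, and AEN also held an E-box 9 bases after the start, outside the stretch shown. The half-sites of DDB2 began 6 and 17 bases after the start. Matches are letters in these windows, not shown binding, and an absent match says nothing about sites elsewhere in the gene. Half-sites occurred in 6 of the 39 member windows (15.4%), in 6.63% of all 35116 windows and in 5.53% of the 10885 windows of genes above 50. E-boxes occurred in 5 member windows (12.8%), in 7.26% of all windows and in 10.0% of the windows of genes above 50. The member windows include those of members without a value here, so they are not a like set to the windows of genes above 50. Such members are BBC3 and GADD45B among those with an E-box and FDXR among those with a half-site.

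To ask how the members stood after MYC siRNA, each signal with MYC siRNA was divided by that with control siRNA, with signals under 50 set to 50. The thresholds of the study were kept, so that an UP DEG has a ratio of 2 or more and a DOWN DEG one of 0.5 or less. Of the 28 members above 50, 2 were UP DEGs (TP53I3 and CCNG2), that is 7.14%, against 2.73% of all genes, and 0 were DOWN DEGs, against 0.695% of all genes. At a ratio of 1.5, 5 members were higher, with PLK2, SERPINB5 and ZMAT3 added, against 10.4% of all genes, and 0 were lower, against 5.72%. In all 18 members were higher and 10 lower, that is 64.3% higher, against 53.5% of all genes. The median log2 ratio of the members was 0.09, beside 0.03 over all genes, so that most members stood close to the bulk of the genes. Higher by more than 2 SDs between probe sets were 6 members, against 14.2% of all genes, and lower by more than 2 SDs was 1 member, against 10.0%. The other 21 lay within 2 SDs, and 13 of the 28 lay within 1 SD.

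**Figure D1:**
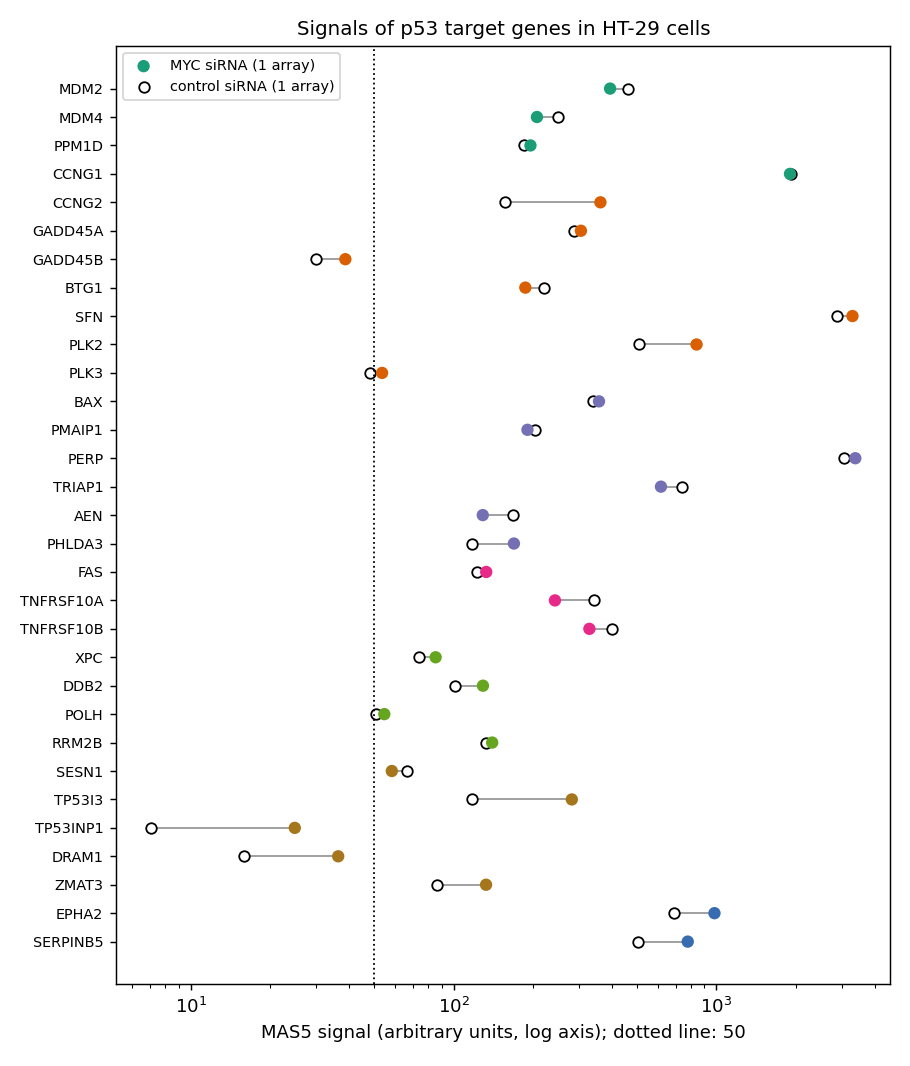
MAS5 signal (x axis, log scale) of the brightest probe set of each of the 31 members with a probe set of their own, with MYC siRNA (filled, coloured by role) and control siRNA (open), 1 array each. The dotted line marks 50; the widest gaps to its right belong to TP53I3 (282 and 118) and CCNG2 (362 and 157), and GADD45B, TP53INP1 and DRAM1 lie left of it in both arrays.

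The genes that feed back on p53 were level or slightly lower. MDM2 had a signal of 394 with MYC siRNA and 462 with control siRNA, 1.17-fold lower, equal to 1 SD between probe sets. The other 2 of its 10 probe sets above 50 were lower as well, and the 3 log2 ratios lay between -0.23 and -0.03. MDM4, which binds and masks the activation domain of p53, had 208 with MYC siRNA and 251 with control siRNA, 1.21-fold lower, with 3 probe sets between -0.29 and -0.05. The ratios of MDM2 and MDM4 differed by 0.04 (log2), against an SD of 0.32 expected for such a difference from the spread between probe sets. CCNG1, a cyclin that recruits a phosphatase to MDM2, had 1905 with MYC siRNA and 1920 with control siRNA. PPM1D, a phosphatase that switches off p53 and its kinases, had 196 with MYC siRNA and 185 with control siRNA. The ratios of these 4 genes thus ran from 0.83 for MDM4 to 1.06 for PPM1D.

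The genes of cell cycle arrest held one of the UP DEGs. CCNG2, an unconventional cyclin linked to arrest and also a target of FOXO factors, had a signal of 362 with MYC siRNA and 157 with control siRNA, 2.31-fold higher, and it ranked 143rd from the highest of the 8917 genes. Its other probe sets above 50 had 192 and 203 with MYC siRNA and 88.3 and 115 with control siRNA, with log2 ratios of 1.12 and 0.81, so that all 3 were higher. CCNG2 and its relative CCNG1 differed by 1.22 in log2 ratio, against an SD of 0.30 for such a difference. PLK2, a polo-like kinase induced by damage, had 840 with MYC siRNA and 507 with control siRNA, 1.66-fold higher, on 1 probe set. Its relative PLK3 had 53.5 with MYC siRNA and 48.2 with control siRNA, close to the floor, so its ratio of 1.07 is a lower bound. PLK3 passed 50 with MYC siRNA only, so its unadjusted ratio could only be higher.

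SFN, the 14-3-3 protein that holds mitotic kinases in the cytoplasm, had 3292 with MYC siRNA and 2866 with control siRNA, 1.15-fold higher. Its 3 probe sets lay between 0.20 and 0.45 in log2 ratio. GADD45A, a damage-induced inhibitor of CDK1, had 305 with MYC siRNA and 287 with control siRNA, a log2 ratio of 0.09. GADD45B was under 50 in both arrays (38.8 with MYC siRNA and 29.9 with control siRNA), so this pair could not be compared. BTG1, an antiproliferative protein that acts on mRNA deadenylation, had 187 with MYC siRNA and 220 with control siRNA, 1.17-fold lower, and 147 and 143 in its second probe set, whose direction was opposite. BTG2 was not analysed here.

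Genes grouped here under mitochondrial apoptosis, not all of which act at mitochondria, were split, 3 higher and 3 lower, with a median log2 ratio of -0.01. With either mean over probe sets 4 were higher and 2 lower, and the medians were 0.11 and 0.12. BAX, which perforates the outer mitochondrial membrane, had 357 with MYC siRNA and 339 with control siRNA, a log2 ratio of 0.08, and its second probe set had 0.23. PMAIP1, the BH3-only protein NOXA, had 191 with MYC siRNA and 203 with control siRNA, while its second probe set had 116 with MYC siRNA and 86.0 with control siRNA, so its direction depends on the probe set. PHLDA3, which keeps AKT from the membrane, had 170 with MYC siRNA and 117 with control siRNA, 1.45-fold higher, the highest of this group. PERP, a membrane protein of desmosomes that p53 induces in apoptosis, had 3374 with MYC siRNA and 3049 with control siRNA, a log2 ratio of 0.15. AEN, an apoptosis-enhancing nuclease of the nucleolus, had 129 with MYC siRNA and 168 with control siRNA, 1.30-fold lower. TRIAP1, a small protein that restrains apoptosis, had 615 with MYC siRNA and 739 with control siRNA, 1.20-fold lower. BBC3 has no probe set of its own in the annotation used here, and no value is given for it.

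The TRAIL receptors were lower, and FAS was level. TNFRSF10A, the receptor DR4, had a signal of 243 with MYC siRNA and 343 with control siRNA, 1.41-fold lower, the lowest ratio among the members. All 3 of its probe sets were lower, with log2 ratios between -0.50 and -0.07. TNFRSF10B, the receptor DR5, had 329 with MYC siRNA and 400 with control siRNA, 1.22-fold lower, but its other 2 probe sets above 50 were near 0, and the highest of them had 55.8 with MYC siRNA and 55.7 with control siRNA. The receptors differed by -0.21 in log2 ratio, against an SD of 0.32 for such a difference. FAS had 133 with MYC siRNA and 123 with control siRNA, with 4 probe sets between -0.17 and 0.12.

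The members of DNA repair and nucleotide supply were all 4 slightly higher, with a median log2 ratio of 0.15, but POLH and RRM2B turned lower after quantile normalization (-0.02 and -0.0014) and after loess on mean signal (-0.04 and -0.01). DDB2, which finds ultraviolet lesions in chromatin, had 129 with MYC siRNA and 101 with control siRNA, 1.28-fold higher. XPC, which starts nucleotide excision repair at such lesions, had 85.5 with MYC siRNA and 74.0 with control siRNA, a log2 ratio of 0.21. POLH, a polymerase that copies past lesions, had 54.5 with MYC siRNA and 50.8 with control siRNA, and RRM2B, a ribonucleotide reductase subunit, had 140 with MYC siRNA and 133 with control siRNA. All 4 belong to the dim genes, of which 64.0% were higher with a median of 0.14, so that these ratios were close to those of equally dim genes.

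The remaining members included the highest of all. TP53I3, a quinone oxidoreductase known as PIG3, had a signal of 282 with MYC siRNA and 118 with control siRNA, 2.40-fold higher, and it ranked 119th from the highest of the 8917 genes. It rests on 1 probe set, whose ID marks it as able to match several transcripts. ZMAT3, an RNA-binding zinc finger protein, had 133 with MYC siRNA and 86.8 with control siRNA, 1.53-fold higher, and its other 3 probe sets above 50 were higher by less, the lowest with a log2 ratio of 0.04. SESN1, a sestrin that restrains mTORC1, had 58.2 with MYC siRNA and 66.8 with control siRNA, 1.15-fold lower. DRAM1 and TP53INP1, both of autophagy, were under 50 in both arrays, with 36.4 and 24.9 with MYC siRNA and 15.9 and 7.09 with control siRNA, so no fold is given. FDXR was not analysed here.

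Both members of epithelial signalling and adhesion were higher. SERPINB5, the non-inhibitory serpin maspin of epithelia, had 778 with MYC siRNA and 502 with control siRNA, 1.55-fold higher. EPHA2, an ephrin receptor kinase, had 983 with MYC siRNA and 691 with control siRNA, 1.42-fold higher. The epithelial markers KRT20 and LGALS4 were 1.41-fold and 1.72-fold higher beside them, and their part in this result was not tested. In bulk RNA, a larger share of expressing cells and more RNA per cell cannot be told apart.

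**Figure D2:**
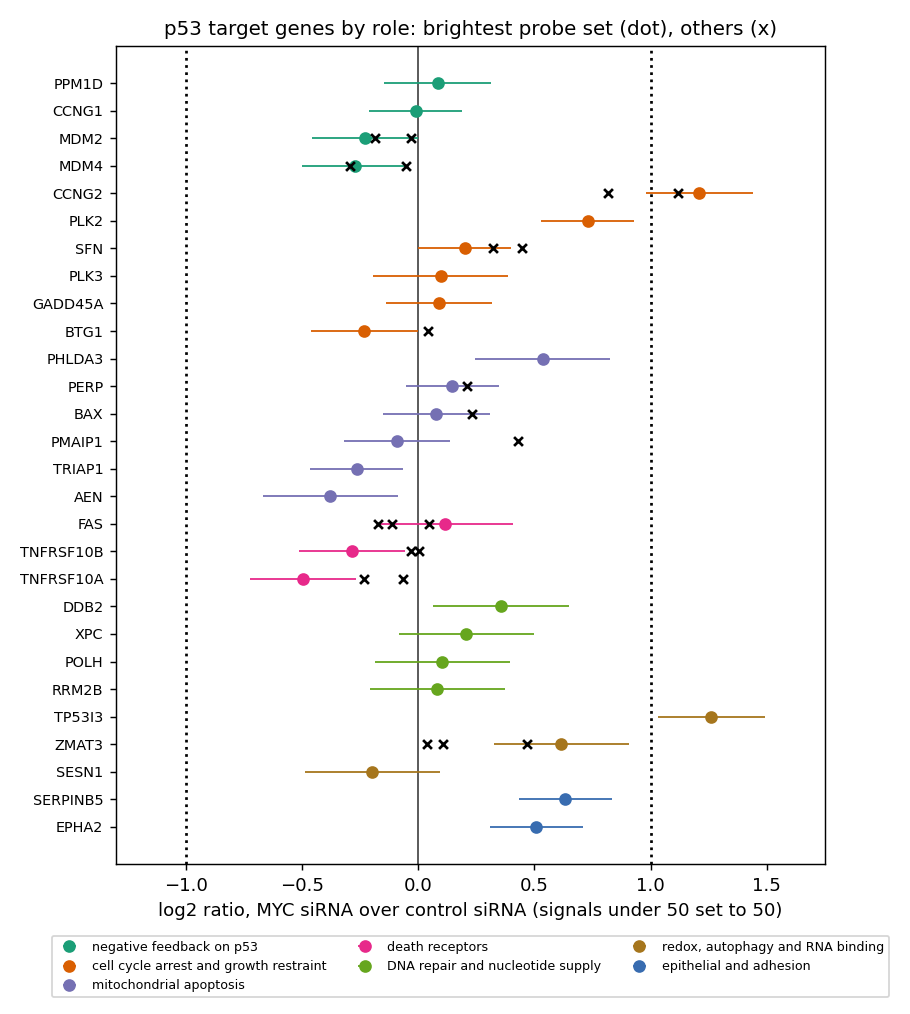
Log2 ratios (x axis, MYC siRNA over control siRNA) of the 28 members above 50, grouped and coloured by role. Dots are the brightest probe set with bars of 1 SD (the spread between probe sets in the gene's signal group), crosses are the other probe sets above 50, and dotted lines mark 2-fold; TP53I3 and CCNG2 lie right of 2-fold at 1.26 and 1.21, while TNFRSF10A is lowest at -0.50.

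Of the 12 members with at least 2 probe sets above 50, 8 had all of them on one side of 0 and 4 did not (BTG1, FAS, PMAIP1 and TNFRSF10B). The ratio also depended on the signal. Among dim genes 8 of 10 members were higher with a median of 0.11, beside 0.14 for all dim genes. In the middle group 5 of 11 members were higher with a median of -0.09, beside 0.04 for all. In the bright group 5 of 7 members were higher with a median of 0.20, beside -0.06 for all, and these 5 were SFN, PLK2, PERP, EPHA2 and SERPINB5. After loess on mean signal the median of the 28 members was 0.04, while TP53I3, CCNG2 and PLK2 had log2 ratios of 1.21, 1.17 and 0.75.

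**Figure D3:**
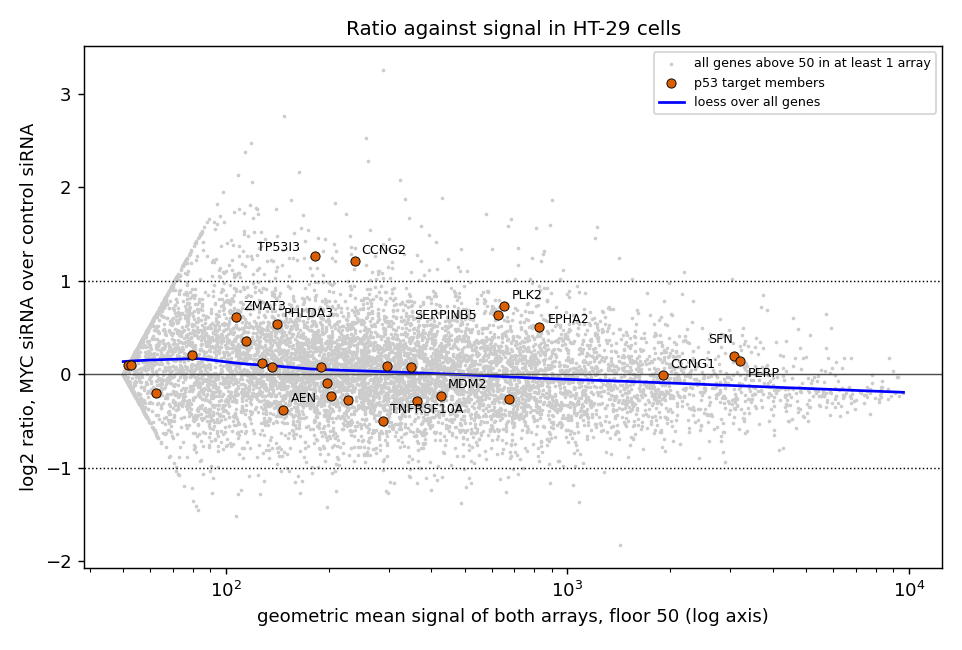
Log2 ratios (y axis, MYC siRNA over control siRNA) against the geometric mean signal of both arrays (x axis, log scale) for all 8917 genes above 50 (grey) and the 28 members (orange), with the loess curve over all genes (blue). The curve falls with the signal; TP53I3 and CCNG2 lie above the dotted 2-fold line, and most other members lie inside the cloud.

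Other genes of the pathway were taken from lists chosen by function. Of 49 other p53 target genes, 35 were above 50, of which 22 were higher and 13 lower, with a median log2 ratio of 0.23. That is 62.9% higher, against 53.5% of all genes. Among these, 5 (14.3%) were UP DEGs, against 2.73% of all genes, and 0 were DOWN DEGs, against 0.695%. Without probe sets whose IDs end in _s_at or _x_at, 3 of 22 were UP DEGs with a median of 0.145. CDKN1A and ANKRA2 have no value in that setting. With either mean over probe sets 3 of 35 were UP DEGs, and after loess the median was 0.11. CDKN1A, the gene of the CDK inhibitor p21, had a signal of 243 with MYC siRNA and 58.2 with control siRNA, 4.17-fold higher, on 1 probe set, and its log2 ratio of 2.06 was 1.28 with a floor of 100. ANKRA2, an ankyrin repeat protein, had 232 with MYC siRNA and 92.6 with control siRNA, 2.51-fold higher. FUCA1, a lysosomal fucosidase, had 508 with MYC siRNA and 203 with control siRNA, 2.50-fold higher. The means over its probe sets, of log2 and of linear ratios, ended the call (log2 ratios of 0.66 and 0.81). Its other probe set was not above 50 and enters these means as a log2 ratio of 0. CES2, a carboxylesterase, had 201 with MYC siRNA and 86.8 with control siRNA, 2.32-fold higher, and its other probe sets had log2 ratios of 0.88 and 0.65, so that their means (0.91 and 0.93) ended the call. CD82, a tetraspanin that restrains metastasis, was the fifth UP DEG, outside the naming rule, and had 713 with MYC siRNA and 330.4 with control siRNA, 2.16-fold higher. With both lists joined, 7 of 63 p53 targets (11.1%) were UP DEGs, against 2.73% of all genes, and the joined list was chosen with these values known.

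Of 35 regulators of p53, 27 were above 50, of which 8 were higher and 19 lower, with a median of -0.20. That is 29.6% higher, against 53.5% of all genes and 42.6% of bright genes, and no comparison with genes of equal signal was made. Of the 27, 1 was a DOWN DEG, against 0.695% of all genes. PRMT5, an arginine methyltransferase that acts on p53, had 263 with MYC siRNA and 569 with control siRNA, 2.16-fold lower and a DOWN DEG, with its other 2 probe sets at log2 ratios of -0.76 and -0.77, and the means over its probe sets (-0.88 and -0.87) ended the call. CDKN2A, whose locus encodes the MDM2 inhibitor ARF beside p16, had 1051 with MYC siRNA and 1686 with control siRNA, 1.60-fold lower, and these probe sets were not assigned to either product. USP7, which removes ubiquitin from p53 and MDM2, had 492 with MYC siRNA and 740 with control siRNA, 1.51-fold lower. Its other probe sets above 50 were lower by less, with log2 ratios of -0.34 and -0.21. SETD7, a lysine methyltransferase, had 675 with MYC siRNA and 990 with control siRNA, 1.47-fold lower.

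Genes that p53 lowers through p21 and the DREAM repressor complex were above 50 in 22 cases, of which 6 were higher and 16 lower, with a median of -0.15. That is 27.3% higher, against 53.5% of all genes and 42.6% of bright genes, whose median was -0.06. CDC25A, a phosphatase that activates cyclin-dependent kinases, had 111 with MYC siRNA and 197 with control siRNA, 1.77-fold lower. Its other probe sets above 50 were lower by less, with log2 ratios of -0.08 and -0.29. BUB1B of the spindle checkpoint had 847 with MYC siRNA and 1187 with control siRNA, 1.40-fold lower. BIRC5, which encodes survivin, and the cyclin gene CCNB1 were 1.29-fold and 1.26-fold lower, with 628 and 1928 with MYC siRNA and 810 and 2435 with control siRNA. The second probe set of CCNB1 had a log2 ratio of -0.07. None of the 22 was an UP DEG or a DOWN DEG, against 2.73% and 0.695% of all genes. BUB1B, BIRC5 and CCNB1 are bright genes, and the list was not compared with genes of equal signal.

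Target lists of other regulators that share members were set beside these values. Of 17 FOXO targets, which include CCNG2, BTG1 and GADD45A, 11 were above 50, of which 9 were higher and 2 lower, with a median of 0.09. That is 81.8% higher, against 53.5% of all genes. After loess 7 were higher and 4 lower, and after quantile normalization 7 were higher and 3 lower. The list held 1 UP DEG (9.09%, against 2.73% of all genes), which was the member CCNG2. IRS2, an adaptor of the insulin receptor, had 517 with MYC siRNA and 291 with control siRNA, 1.78-fold higher, while TXNIP, RICTOR and CDKN1B had log2 ratios of 0.13, 0.09 and 0.05. Of 18 ATF4 and CHOP targets, which include TNFRSF10B and PMAIP1, 15 were above 50, of which 4 were higher and 11 lower, with a median of -0.23. That is 26.7% higher, against 53.5% of all genes. SLC7A5, ASNS and PSAT1 were DOWN DEGs at 2.57-fold, 2.15-fold and 2.06-fold lower, and VEGFA was 1.72-fold lower. These 3 of 15 stand against 0.695% DOWN DEGs among all genes. Without probe sets whose IDs end in _s_at or _x_at, 7 genes were left, with 0 DOWN DEGs and a median of -0.03. SLC7A5, ASNS and PSAT1 have no value in that setting. With either mean over probe sets, 2 of 15 were DOWN DEGs, and the medians were -0.08 and -0.07. The call of ASNS ended with the means over probe sets (log2 ratios of -0.55 and -0.45), where its other probe set, not above 50, enters as 0. That of PSAT1 ended after quantile normalization and loess (-0.97 and -0.98). All 31 interferon-stimulated genes above 50, of 47 listed, were higher with a median of 0.96, led by IFI27 (4.49-fold), IFIT3 (4.39-fold), DDX60 (at least 3.53-fold) and OAS1 (3.11-fold). Of the 31, 13 (41.9%) were UP DEGs, against 2.73% of all genes, and 4 of 21 with a floor of 100. Of the UP DEGs, IFIT1, IFI6, IFI35 and DDX60 had 30.5, 26.6, 29.8 and 34.8 with control siRNA. They passed 50 with MYC siRNA only, so their unadjusted ratios could only be higher. With a floor of 100 the log2 ratios of DDX60 and OAS1 were 0.82 and 0.80, under 2-fold, and that of IFIT3 was 1.18. The second probe set of IFIT3 had 98.7 with MYC siRNA and 63.5 with control siRNA, a log2 ratio of 0.64. Of the 31 genes, 1 was lower after loess, as was 1 of 19 without probe sets whose IDs end in _s_at or _x_at. Whether these programmes had a part in the ratios of the members was not tested.

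**Figure D4:**
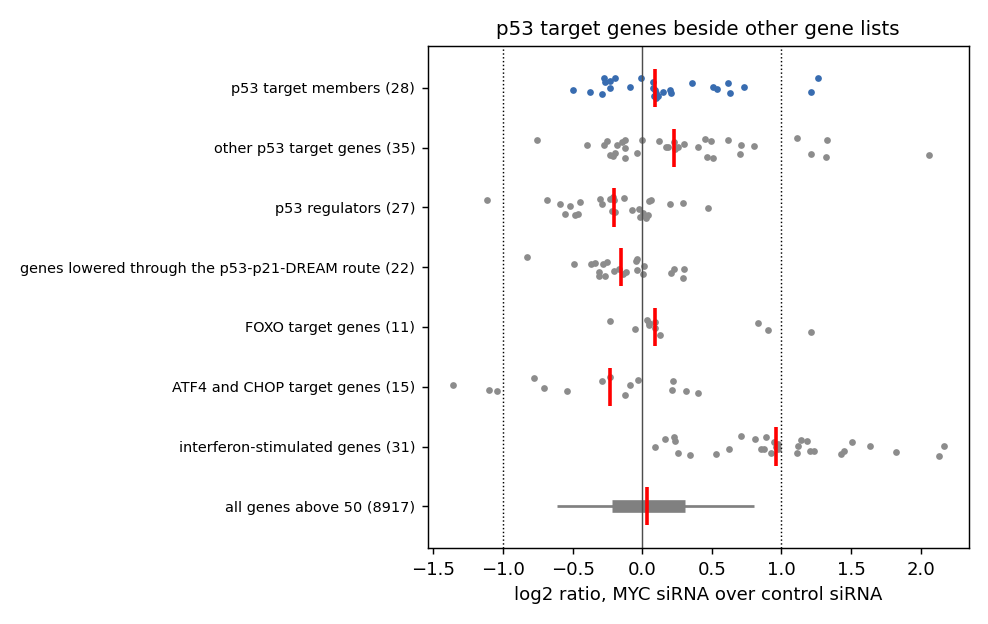
Log2 ratios (x axis, MYC siRNA over control siRNA) of genes above 50 in the member list (blue) and 6 other lists (grey), with the number of genes in brackets; all genes are shown by their middle 50% (thick bar) and 90% (thin line). Red bars are medians, at 0.09 for the members and 0.03 for all genes, and dotted lines mark 2-fold.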

How the data were processed

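The authors' deposited values are signal intensities of 54675 probe sets on Affymetrix Human Genome U133 Plus 2.0 arrays, computed with the MAS5 algorithm of affy 1.40.0 on a linear scale. The authors scaled each array to a target mean of 100; trimmed of 2% of probe sets at either end, both means were checked and were 100. Signals exceeded 50 in 16571 probe sets with MYC siRNA and 16074 with control siRNA. As a sign of RNA quality, 3' over 5' signal was 1.14 and 1.02 for ACTB and GAPDH with MYC siRNA, and 1.16 and 1.00 with control siRNA.

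The platform annotation gives 1 gene for 41097 probe sets and several for 1801, and it does not list 11777. Symbols were updated by gene identifier to RefSeq (GRCh38.p14), which held 19735 of 19775 genes. A gene took its brightest probe set. Signals under 50 were set to 50, the log2 ratio was taken, and genes at or under 50 in both arrays were left out. The number of arrays limits the precision. The members, lists and alternatives were chosen with earlier results of these data known. All members are named, MYC, and of each other list the 4 further genes with the largest log2 ratio in either direction whose brighter array reached 100. Promoter sequences are from RefSeq. Calculations were tested on simulated arrays and used Python 3.11.15 with pandas 2.3.3, numpy 2.4.6, statsmodels 0.14.6 and, for the figures, matplotlib 3.10.9.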

Additional observations from a re-analysis of the deposited data

How the results depend on the processing

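Alternatives were a floor of 25 or 100, no floor with 1 added, median centring, quantile normalization, loess (span 0.3), leaving out probe sets with IDs ending in _s_at or _x_at, averaging the log2 or the linear ratios of a gene's probe sets, a brighter array of at least 100, and fold thresholds of 1.5 and 3. The median log2 ratio of the members lay between 0.04 (loess) and 0.15 (without the _s_at and _x_at probe sets, 18 genes). The number of UP DEGs among them was 1 without these probe sets, which leaves TP53I3 out, and 1 with either mean over probe sets, where CCNG2 had log2 ratios of 0.63 and 0.72 because its probe sets at or under 50 enter as 0. It was 5 at a threshold of 1.5 and 0 at 3. DOWN DEGs stayed at 0 under the threshold of 2. CCNG2 minus CCNG1 was 0.64 and 0.73 with the means on the log2 and linear scale. Of the 28 members, 22 kept their direction wherever they had a value, 14 higher and 8 lower, and CCNG1, FAS, PLK3, PMAIP1, POLH and RRM2B did not. Among the other named genes, 27 of 240 values moved by more than the SD between probe sets, and the means over probe sets, a floor of 100, quantile normalization or loess ended the calls given with them. IRS2 became 2-fold higher with the means (log2 ratios of 1.18 and 1.22). No paired analysis was possible because each condition has 1 array. At or near a signal of 50, as for PLK3 and POLH, the floor limits any ratio.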
